A study of Mus musculus with 7 samples.

Results

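The loci of 9 genes that encode regulators of the naive and quiescent state of T cells were examined for Runx3 occupancy and for the enhancer mark H3K4me1 in unstimulated CD8+ T lymphocytes (CD8-TC). The genes were Tcf7, Lef1, Bach2, Foxo1, Foxp1, Klf2, Klf3, Tob1 and Btg1. A region was assigned to a gene when its midpoint lay in the gene body or within 50 kb of either end. By this rule 38 of the 4934 Runx3-bound regions and 324 of the 76705 H3K4me1-marked regions fell at the 9 genes. Positions are those of the mouse genome build mm9 (NCBIM37) with its GENCODE annotation.

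Both lists came from chromatin immunoprecipitation followed by sequencing (ChIP-seq), in which DNA fixed to a protein is pulled down with an antibody and sequenced. The cells were splenic CD8+ T cells of wild-type ICR mice, taken without IL-2 treatment and purified by positive selection on anti-CD8 beads, with 18 mice pooled per the labels. There were 7 libraries: 3 with an antiserum against Runx3 (from 2 immunoprecipitations), 2 with a monoclonal antibody against H3K4me1, and 2 with non-immune rabbit serum (NIS) as the control of both. The authors joined the repeats of each antibody before calling regions, so no value below has a replicate error and no test between groups was possible. The lists give positions without height, score or read count, so the depth behind a region is unknown. All intervals are 95% intervals, cover counting error over regions only, and take neighbouring regions as independent, which they are not. As a check of the cell type, H3K4me1-marked regions within 5 kb of marker genes were counted. There were 3 to 5 at each of the T-cell genes Cd8a, Cd8b1, Cd3e and Cd3g, but also 6 at Ms4a1 and 5 at Cd79a, both B-cell genes, and 0 at the NK-cell gene Ncr1. Runx3-bound regions numbered 1 each at Cd8a, Cd8b1 and Cd3g, and 0 at Cd3e, Ms4a1, Cd79a and Ncr1. The part of such cells in the regions described here was not tested.

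Runx3 is a transcription factor of the Runt family that binds the RUNX motif and acts in the development and the killing function of CD8-TC. Before they meet antigen, these cells rest in a state that is kept by transcription factors of several families and by proteins that restrain cell division. H3K4me1 is found at enhancers, stretches of DNA that act on a gene from a distance, and typically leaves the start site of an active gene bare while flanking it.

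For 7 of the 9 loci, 1 Runx3-bound region is shown so that the motifs behind the results on binding can be read in place. It is the region with the most RUNX motifs near its midpoint or, where regions of a gene tied, the one of these nearest to the gene's start. Bach2 R2 tied with Bach2 R3 at 2 motifs, and the 3 regions of Klf3 tied at 1. Its central 200 bp are given on the plus strand of mm9. Capitals mark the RUNX motif in its forms TGTGGT or TGTGGC as well as TGCGGT or TGCGGC on either strand, so that a motif on the minus strand reads as its reverse complement. Regions are numbered within a gene in the direction of its transcription.
Tcf7 R1, chr11:52131993-52132192: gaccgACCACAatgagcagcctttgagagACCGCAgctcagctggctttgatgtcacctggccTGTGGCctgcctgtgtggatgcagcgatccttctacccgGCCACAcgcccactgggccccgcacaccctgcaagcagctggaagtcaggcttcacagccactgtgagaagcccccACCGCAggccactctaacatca
Lef1 R4, chr3:130860531-130860730: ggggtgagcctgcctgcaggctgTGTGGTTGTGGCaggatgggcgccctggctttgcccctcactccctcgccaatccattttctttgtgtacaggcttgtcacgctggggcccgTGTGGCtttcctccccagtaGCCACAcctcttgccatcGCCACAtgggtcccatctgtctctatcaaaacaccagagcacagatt
Bach2 R2, chr4:32345270-32345469: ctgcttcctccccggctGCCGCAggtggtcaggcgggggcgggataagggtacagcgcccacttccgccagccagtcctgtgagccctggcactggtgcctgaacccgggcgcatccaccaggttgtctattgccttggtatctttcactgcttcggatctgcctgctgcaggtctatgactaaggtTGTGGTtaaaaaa
Foxo1 R2, chr3:52147544-52147743: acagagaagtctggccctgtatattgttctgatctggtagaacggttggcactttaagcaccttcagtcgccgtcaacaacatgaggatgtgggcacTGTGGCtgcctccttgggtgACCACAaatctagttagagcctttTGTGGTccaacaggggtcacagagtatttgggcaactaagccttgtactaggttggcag
Klf2 R5, chr8:74874748-74874947: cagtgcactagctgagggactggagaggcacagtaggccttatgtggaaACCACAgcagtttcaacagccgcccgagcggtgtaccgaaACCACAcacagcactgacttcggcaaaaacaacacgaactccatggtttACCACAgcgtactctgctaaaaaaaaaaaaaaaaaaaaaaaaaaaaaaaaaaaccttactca
Klf3 R1, chr5:65204704-65204903: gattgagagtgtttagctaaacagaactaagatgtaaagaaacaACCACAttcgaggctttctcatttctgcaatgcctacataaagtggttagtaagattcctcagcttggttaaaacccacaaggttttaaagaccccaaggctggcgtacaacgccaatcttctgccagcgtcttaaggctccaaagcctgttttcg
Btg1 R3, chr10:96072053-96072252: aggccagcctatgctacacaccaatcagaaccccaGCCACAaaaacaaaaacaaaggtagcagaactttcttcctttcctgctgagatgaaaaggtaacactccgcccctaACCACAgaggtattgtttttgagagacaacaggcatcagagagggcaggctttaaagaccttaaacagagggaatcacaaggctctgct
The windows of Tcf7 R1 and Lef1 R4 each hold 5 motifs, which was the highest number among the 38 regions. In Lef1 R4 a TGTGGT and a TGTGGC stand directly next to each other. The single region of Foxp1 held none near its midpoint, and Tob1 had no Runx3-bound region.

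Runx3-bound regions were found at 8 of the 9 genes, whereas 30.8% of the 22350 protein-coding genes of the annotation had at least 1 within the same distance. Tcf7, Lef1 and Klf2 had 7 regions each, Bach2 and Btg1 had 5 each, Foxo1 and Klf3 had 3 each, Foxp1 had 1 and Tob1 had 0. Thus 5 of the 9 genes had 5 or more regions, a number reached by 0.537% of all protein-coding genes (120 genes). This count rests on the distance taken: within 10 kb of the gene only Lef1 with 7 and Bach2 with 5 had as many (2 of 9, beside 0.139% of all genes), while Klf2 went from 7 to 1, Tcf7 from 7 to 3 and Btg1 from 5 to 2. Within 50 kb, as many as 7 were found at 0.0940% of them. The median protein-coding gene had 0. These genes were chosen with earlier results of the same data known, so the shares of all genes stand here for comparison and not as a test. The same holds for every comparison with all regions or all genes below.

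Long genes have wide windows, and the counts were therefore set against length. The 9 windows spanned 1.85 Mb and held 2.05 Runx3-bound regions per 100 kb, against 0.187 per 100 kb over all chromosomes. Klf2 was the densest with 6.82 per 100 kb, followed by Tcf7 with 5.35, Btg1 with 4.73, Lef1 with 3.27, Klf3 with 2.37, Foxo1 with 1.65 and Bach2 with 1.12. Foxp1, by the gene span of the annotation used, held 0.227 per 100 kb, near the value of the chromosomes. A density as high as that of Klf2 was found at 0.0134% of all protein-coding genes, as high as that of Tcf7 at 0.0761% and as high as that of Btg1 at 0.116%. The order by density thus put Klf2 and Btg1, genes of 2.62 and 5.81 kb, beside Tcf7, and moved Bach2, a gene of 347.3 kb, down to a density that 8.75% of genes reached. It holds for the distance of 50 kb. Within 10 kb the counts were 1 at Klf2, 2 at Btg1, 3 at Tcf7 and 7 at Lef1, and the order by density at that distance was not examined.

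H3K4me1-marked regions were present at all 9 genes, with 10 at Tob1, 15 at Klf3, 20 at Foxo1, 22 at Klf2, 29 at Tcf7, 30 at Btg1, 50 at Lef1, 72 at Foxp1 and 76 at Bach2. Each of the 9 thus had 10 or more, as did 38.5% of all protein-coding genes. The mark covered 39.1% of the 9 windows, 4.14% of the chromosomes and 5.96% of the window of the median protein-coding gene. The cover was 57.3% at Klf2, 56.8% at Btg1, 50.6% at Foxo1, 40.3% at Bach2, 38.6% at Tcf7, 37.4% at Foxp1, 35.7% at Lef1 and 26.9% at Klf3. Tob1 stood apart with 8.72%, a cover that 39.3% of all protein-coding genes reached, whereas for the other 8 genes that share lay between 0.143% at Klf2 and 5.86% at Klf3.

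**Figure D1:**
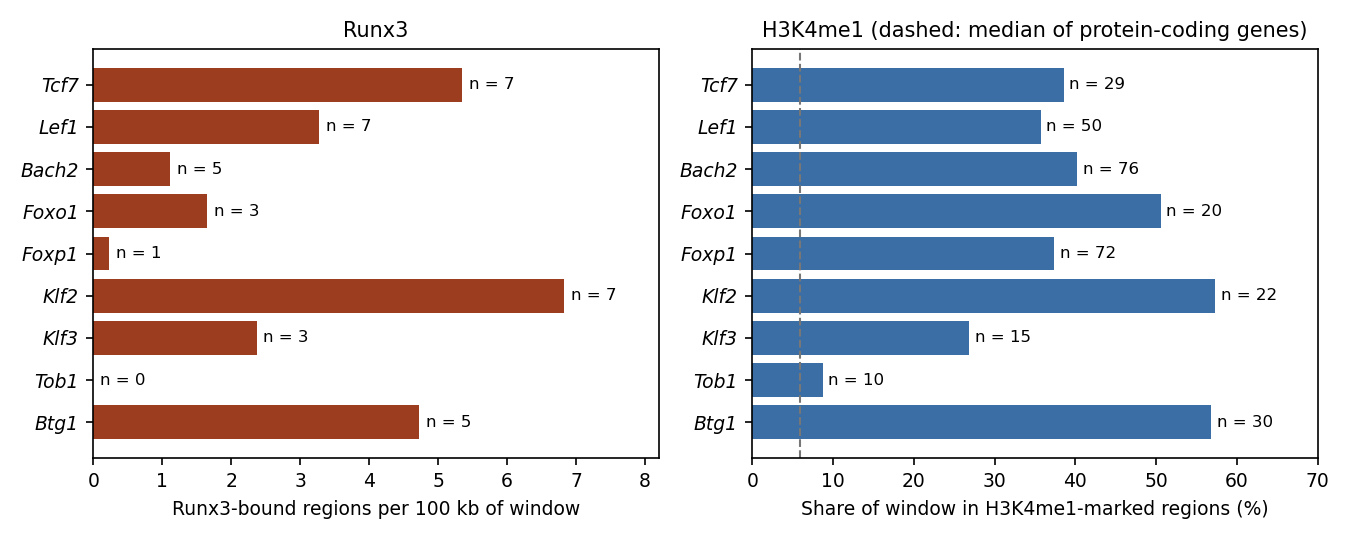
Runx3-bound regions per 100 kb and percent of the window covered by H3K4me1 (horizontal axes) for each of the 9 genes, each window being the gene body and 50 kb on either side. Klf2 has the highest values on both, at 6.82 regions per 100 kb and 57.3% cover, while Foxp1 pairs 0.227 regions per 100 kb with 37.4% cover and Tob1 has 0 regions with 8.72% cover.

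The plot of both densities by gene shows that a high H3K4me1 cover was found both with and without many Runx3-bound regions. Foxo1 and Btg1 had covers of 50.6% and 56.8% with 1.65 and 4.73 Runx3-bound regions per 100 kb, and Foxp1 had 1 Runx3-bound region among 72 marked regions.

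The first pair of genes, Tcf7 and Lef1, encode related HMG-box factors that guide T-cell development and are kept on in naive and memory cells. Tcf7 (chr11:52065873-52096681, minus strand) had 4 Runx3-bound regions 35.4, 31.1, 26.6 and 16.6 kb upstream of its 5′-most start site and 3 in introns at 7.5, 9.0 and 17.4 kb. The upstream regions lay in a flank covered to 52.1% by H3K4me1, with 53.0% of the gene body and 16.2% of the downstream flank covered. All 7 regions overlapped H3K4me1, and 2 of them had their midpoint between marked regions. The farthest of them, Tcf7 R1 (chr11:52131776-52132409), was wholly inside a marked region of 4295 bp, and Tcf7 R7 (chr11:52078787-52079765) lay in the widest marked region of the locus, of 10303 bp.

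Lef1 (chr3:130813389-130927274, plus strand) had all 7 Runx3-bound regions inside the gene, at 2.7, 7.3, 43.5, 47.2, 49.9, 80.4 and 98.3 kb from the start, and none in either flank. The H3K4me1 cover followed the same borders, with 59.1% of the body, 13.6% of the upstream flank and 4.54% of the downstream flank. After marked regions within 1000 bp of each other were merged, a stretch of 53.3 kb in the body (chr3:130827510-130880792) held 3 of the 7 Runx3-bound regions. Only 12 of the 48155 merged stretches of the whole list were as wide. Within 50 kb, Tcf7 and Lef1 thus had the same number of Runx3-bound regions, upstream and intronic at Tcf7 and intronic alone at Lef1. Within 100 kb they had 8 and 9, and the nearest region upstream of Lef1 lay 53.1 kb from its start.

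Bach2 (chr4:32325779-32673083, plus strand) encodes a repressor that restrains effector genes in T cells. Its 5 Runx3-bound regions were intronic and lay at 10.4, 19.6, 52.9, 105.1 and 112.7 kb, so that all 5 fell in the 5′ part of a gene of 347.3 kb. Each overlapped an H3K4me1-marked region of between 3577 and 7465 bp, and 4 of the 5 were covered completely. The mark itself went on beyond them: 44.6% of the gene body and 38.8% of the upstream flank were covered. The widest marked region, 12413 bp at 122 kb from the start, held no Runx3-bound region. For 3 of the 5 regions the nearest protein-coding start site was that of D130062J21Rik, which lies in the same window.

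**Figure D2:**
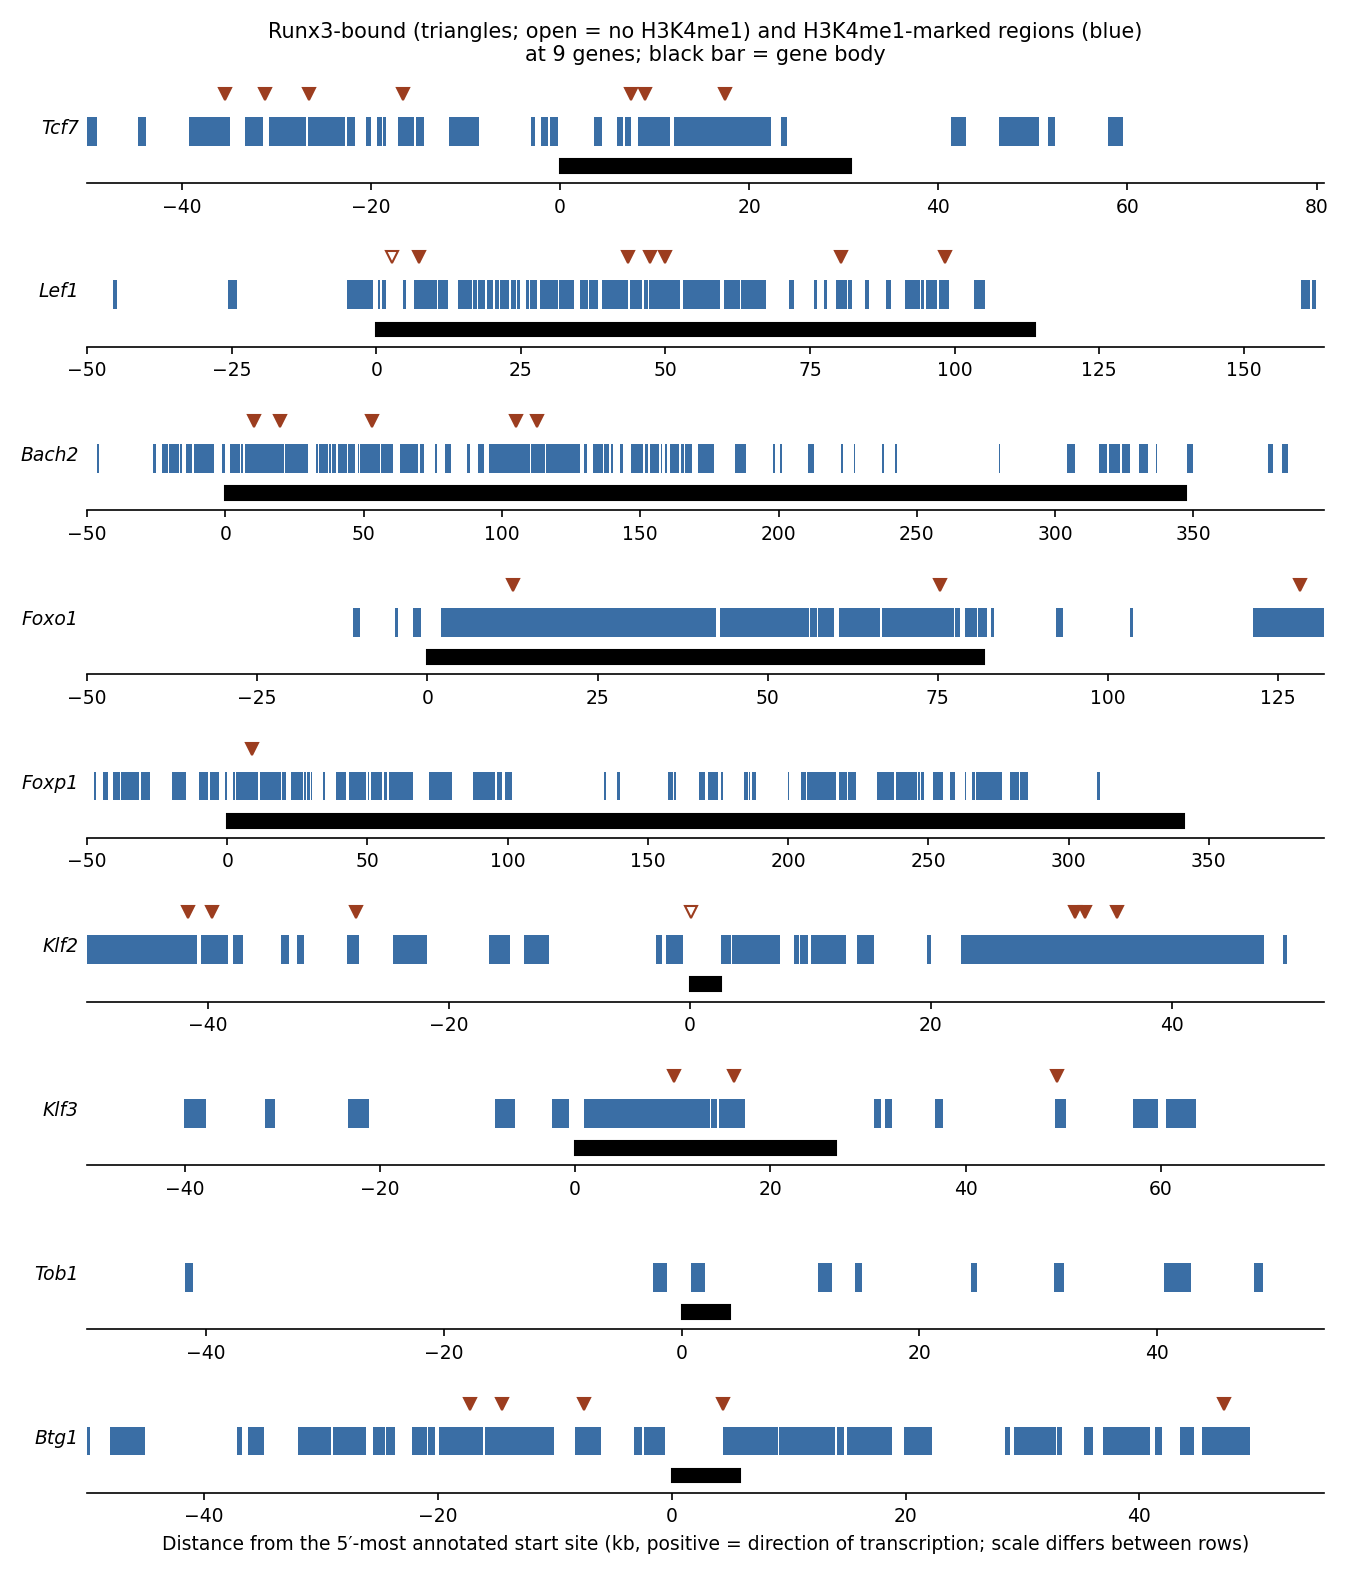
Maps of the 9 loci, with distance from the 5′-most start site in kb on the horizontal axis in the direction of transcription, the gene body, the H3K4me1-marked regions and the Runx3-bound regions. Runx3-bound regions spread over 52.8 kb at Tcf7, 95.6 kb at Lef1 and 115.7 kb at Foxo1, and Tob1 shows none.

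The forkhead factors were next. Foxo1 holds T cells in quiescence and drives homing and survival genes such as Ccr7, Il7r and Klf2, and Foxp1 is required to keep naive T cells at rest. Foxo1 (chr3:52072259-52154031, plus strand) had 3 Runx3-bound regions at 12.5, 75.4 and 128.2 kb, the first 2 in introns and the last downstream of the gene, and the smallest distance between neighbouring midpoints was 52807 bp. H3K4me1 covered 93.3% of its gene body, 5.40% of the upstream and 25.8% of the downstream flank. The widest single marked region had 20275 bp (chr3:52094382-52114656), and 27 regions of the whole list were as wide. Merged stretches reached 81.3 kb (chr3:52074263-52155583) and ran from the gene's first part to past its end, and 3 merged stretches of the whole list, this one included, were as wide. It held the first 2 Runx3-bound regions.

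Foxp1 (chr6:98875332-99216526, minus strand) had 1 Runx3-bound region, Foxp1 R1 (chr6:99207460-99208022), 8.8 kb into the gene and within an H3K4me1-marked region of 7859 bp. The same position lies in a non-coding exon of Eif4e3, a gene that overlaps Foxp1 there, so the region cannot be assigned to either gene by position. H3K4me1 covered 53.9% of the upstream flank, 40.4% of the body and 0% of the downstream flank. With 72 marked regions for 1 bound region, Foxp1 had the lowest ratio of bound to marked regions among the 8 genes with Runx3. At Bach2, a gene of similar annotated length with 76 marked regions, there were 5 bound regions. The count and the ratio at Foxp1 rest on its annotated span. A start of Foxp1 farther upstream, if missing from the annotation, would change them.

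Klf2 and Klf3 encode Krüppel-like zinc-finger factors that bind related GC-rich elements. Klf2 keeps naive T cells circulating through its target S1pr1, and Klf3 is mostly a repressor. Klf2 (chr8:74842932-74845555, plus strand) had 3 Runx3-bound regions upstream at 41.6, 39.6 and 27.7 kb, 1 at its start site, and 3 downstream at 31.9, 32.8 and 35.5 kb. The 3 downstream regions were inside a single H3K4me1-marked region of 19538 bp (chr8:74870998-74890535), within introns of the neighbouring gene Eps15l1, and 32 regions of the whole list were as wide. The midpoints of the first 2 of these were 845 bp apart, the smallest distance in the set. H3K4me1 covered 72.0% of the downstream flank, 45.6% of the upstream flank and 0.191% of the short gene body. For the 3 upstream regions the nearest protein-coding start site was that of Gm10282 and not of Klf2.

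Klf3 (chr5:65194628-65221368, plus strand) had 3 Runx3-bound regions, in introns at 10.2 and 16.3 kb and downstream at 49.4 kb. H3K4me1 covered 60.3% of the body, 18.3% of the upstream flank and 17.5% of the downstream flank, and Klf3 R1 lay within the widest marked region of the locus, of 12923 bp. Klf2 and Klf3 thus differed in layout: at Klf2 both flanks carried the mark and 6 of 7 bound regions lay outside the gene, and at Klf3 2 of 3 lay inside it.

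Tob1 and Btg1 belong to one family of antiproliferative proteins that recruit the CCR4-NOT deadenylase, which shortens the tails of mRNAs, and both have been tied to T-cell quiescence. Btg1 (chr10:96079635-96085447, plus strand) had 5 Runx3-bound regions, 17.2, 14.5 and 7.5 kb upstream, at 4.4 kb in the non-coding part of an exon, and 47.2 kb downstream of the start. All 5 overlapped H3K4me1, which covered 57.7% of the upstream and 59.8% of the downstream flank and 24.0% of the body. The exonic region, Btg1 R4 (chr10:96083445-96084665), had the lowest GC content near its midpoint, 25.0% against a median of 49.5% over the 38 regions.

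Tob1 (chr11:94072768-94076809, plus strand) had no Runx3-bound region in its window, and its 10 H3K4me1-marked regions were at most 1283 bp wide. The closest Runx3-bound region lay 64.4 kb downstream of its start (chr11:94136726-94137641), nearer to Luc7l3. A region that is not listed cannot be told apart from one below the calling threshold. The members of this family thus had 5 and 0 Runx3-bound regions and H3K4me1 covers of 56.8% and 8.72%.

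The 38 Runx3-bound regions lay mostly away from start sites. There were 20 in introns, 10 upstream and 6 downstream of the gene, 1 in a coding exon and 1 in the non-coding part of an exon. Over 5 kb from any annotated transcription start site (TSS) lay 29 of 38 (76.3%, interval 60.8 to 87.0%), against 63.9% of all Runx3-bound regions. Within 1 kb of a TSS lay 3 of 38 (7.89%, 2.72 to 20.8%), against 20.7% of all. The member was the nearest protein-coding gene of 31 of the 38 regions. The remaining 7 were the 3 at Bach2 and the 3 at Klf2 named above, and Lef1 R7, which was nearer to Hadh. Bound regions stood close together: 26 of 38 had another within 10 kb (68.4%, 52.5 to 80.9%), against 18.5% of all Runx3-bound regions.

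Of the 38 Runx3-bound regions, 36 shared at least 1 bp with H3K4me1 (94.7%, 82.7 to 98.5%), compared with 78.8% of all 4934. H3K4me1 covered 39.1% of the sequence of the windows. This share of bases can be set beside the count of midpoints below, but not beside an overlap of 1 bp. Of the 38, 25 were covered completely, a count for which no share of all Runx3-bound regions is given. The midpoint was inside a marked region in 34 (89.5%, 75.9 to 95.8%, against 66.0% of all). The NIS libraries served as control for both lists, and their part in the overlap was not tested. Seen from the other list, 38 of the 324 marked regions held a Runx3-bound region (11.7%, 8.67 to 15.7%), compared with 5.49% of all marked regions.

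The 2 bound regions without H3K4me1 were Klf2 R4 (chr8:74842640-74843342), which spans the Klf2 start site, and Lef1 R1 (chr3:130815696-130816428), which spans a second start site of Lef1, that of a protein-coding transcript, 2326 bp after the 5′-most one. Both lay within 1 kb of an annotated TSS. Of all 1022 Runx3-bound regions that close to a TSS, 117 had no H3K4me1. The third such region of the set, Tcf7 R5 (chr11:52088810-52089591), lay near the start of a non-coding transcript and was covered to 53.5%.

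Marked regions with Runx3 were wider. Their median width was 3804.5 bp (interval 2225 to 5161 bp) over 38 regions, against 1149.5 bp (972 to 1331 bp) over the 286 marked regions of the 9 loci without Runx3. In the whole list the medians were 2260 and 946 bp. A wide region has more room to overlap another, and that part of the difference was not tested. For the Runx3-bound regions themselves the median was 883.5 bp (803 to 959 bp, range 488 to 1483 bp), and that of the whole list, 851 bp, lay inside this interval.

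Of the 5′-most annotated start sites of the 9 genes, that of Foxp1 was inside an H3K4me1-marked region and 8 were outside. The Foxp1 site is that of a transcript not annotated as protein-coding. A protein-coding start 17 bp after it was inside as well. Of all protein-coding genes 17.7% had this start inside, so that a start outside the mark was common to most genes. When all 25 start sites of protein-coding transcripts of the 9 genes were taken, 5 (20%) were inside. At the other 8 genes the start stood in an unmarked gap of 883 bp at Lef1, 1580 bp at Klf3, 1781 bp at Bach2, 2053 bp at Tob1, 2884 bp at Foxo1, 3215 bp at Klf2, 3819 bp at Tcf7 and 4960 bp at Btg1. The mark was nonetheless close, and all 9 genes had a marked region within 1 kb of the start, as did 55.5% of all genes. Tob1 shared this feature although it had little of the mark elsewhere.

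**Figure D3:**
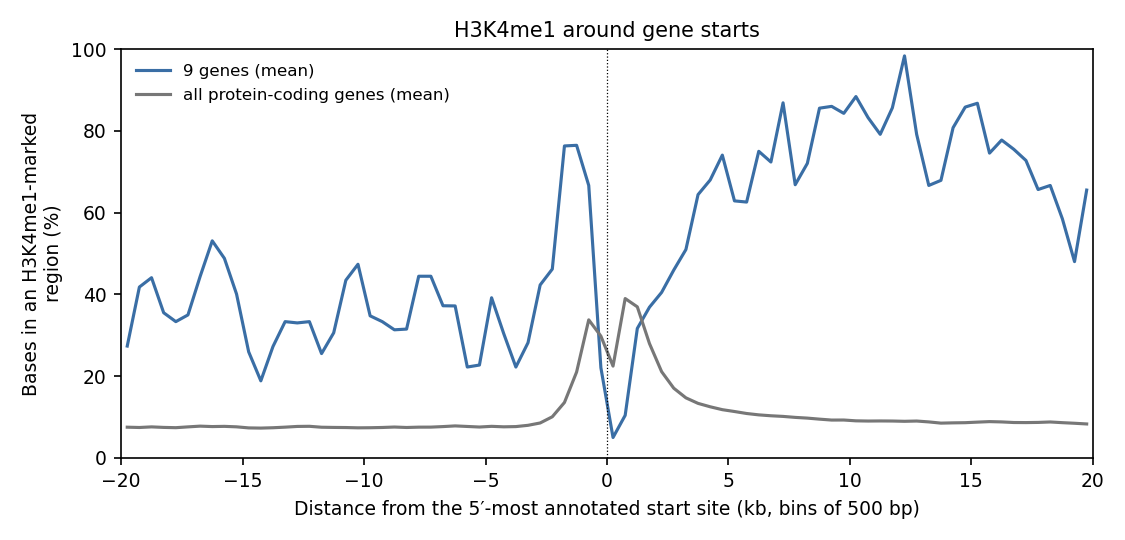
Percent of bases covered by H3K4me1 in bins of 500 bp (vertical axis) against distance from the 5′-most start site in kb (horizontal axis), for the 9 genes and for all protein-coding genes. The mean cover of the 9 genes drops from 76.5% before the start to 4.98% in the first 500 bp after it, then exceeds 80% from place to place downstream, while that of all genes stays at or below 39.0%.

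The plot of H3K4me1 cover around the start gives the mean over the 9 genes. It was 76.5% between 1.5 and 1 kb before the start, 22.0% in the last 500 bp before it, 4.98% in the first 500 bp after it and 68.0% between 4 and 4.5 kb after it. The same bins gave 21.0%, 29.8%, 22.5% and 12.5% over all protein-coding genes. At 10 kb after the start the cover was 88.4% for the 9 genes and 9.06% for all. Close to the start on its downstream side the 9 genes were lower than all genes, with 10.4% against 39.0% between 0.5 and 1 kb and 31.7% against 37.0% between 1 and 1.5 kb, and farther out they were higher. Between 1 and 0.5 kb before the start the cover was 66.7% against 33.8%. The mean is over few genes, and each gene weighs 1 in 9.

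Within 1 kb of the 5′-most start, a Runx3-bound region was found at 1 of the 9 genes, Klf2, and at 4.14% of all genes. At Lef1, Lef1 R1 lay over the later start of a protein-coding transcript, as described above. In the window from 250 bp before to 50 bp after the start, Klf2 had 2 RUNX motifs and Bach2 and Tcf7 had 1 each, and the other 6 genes had none. At least 1 motif was found in this window at 45.3% of all genes. The same windows held between 25 CpG dinucleotides at Btg1 and 52 at Tcf7, except that Foxp1, the one gene with a marked 5′-most annotated start, held 4. Other starts of Foxp1 were not examined for CpG.

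The RUNX motif was searched in the 200 bp around each midpoint. At least 1 was found in 28 of 38 regions (73.7%, 58.0 to 85.0%), compared with 65.9% of all Runx3-bound regions, a value inside this interval. In windows of the same size 5 kb to either side, 18 of 76 held one (23.7%, 15.5 to 34.4%). Of these windows 5 overlapped another Runx3-bound region, and without them 17 of 71 held one (23.9%). The 38 windows held 45 motifs: 10 had none, 19 had 1, 7 had 2 or 3 and 2 had 5. Those with 2 or more were 9 of 38 (23.7%, 13.0 to 39.2%), against 28.9% of all Runx3-bound regions, a value inside this interval. Of the 10 regions without one near the midpoint, 8 had one elsewhere in the region.

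All 5 regions of Bach2, all 3 of Foxo1 and all 3 of Klf3 held the motif near the midpoint, as did 6 of 7 at Klf2, 5 of 7 at Tcf7 and 4 of 7 at Lef1. At Btg1 it was found in 2 of 5, and at Foxp1 in 0 of 1. TGTGGT was found in 18 windows (47.4%), TGTGGC in 9 (23.7%), TGCGGT in 5 (13.2%) and TGCGGC in 3 (7.89%), beside 46.6%, 22.4%, 10.7% and 5.41% of all Runx3-bound regions. The median distance from the midpoint to the nearest motif was 26.5 bp (16 to 53 bp) over the 28 regions with one, and 33 bp over all.

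**Figure D4:**
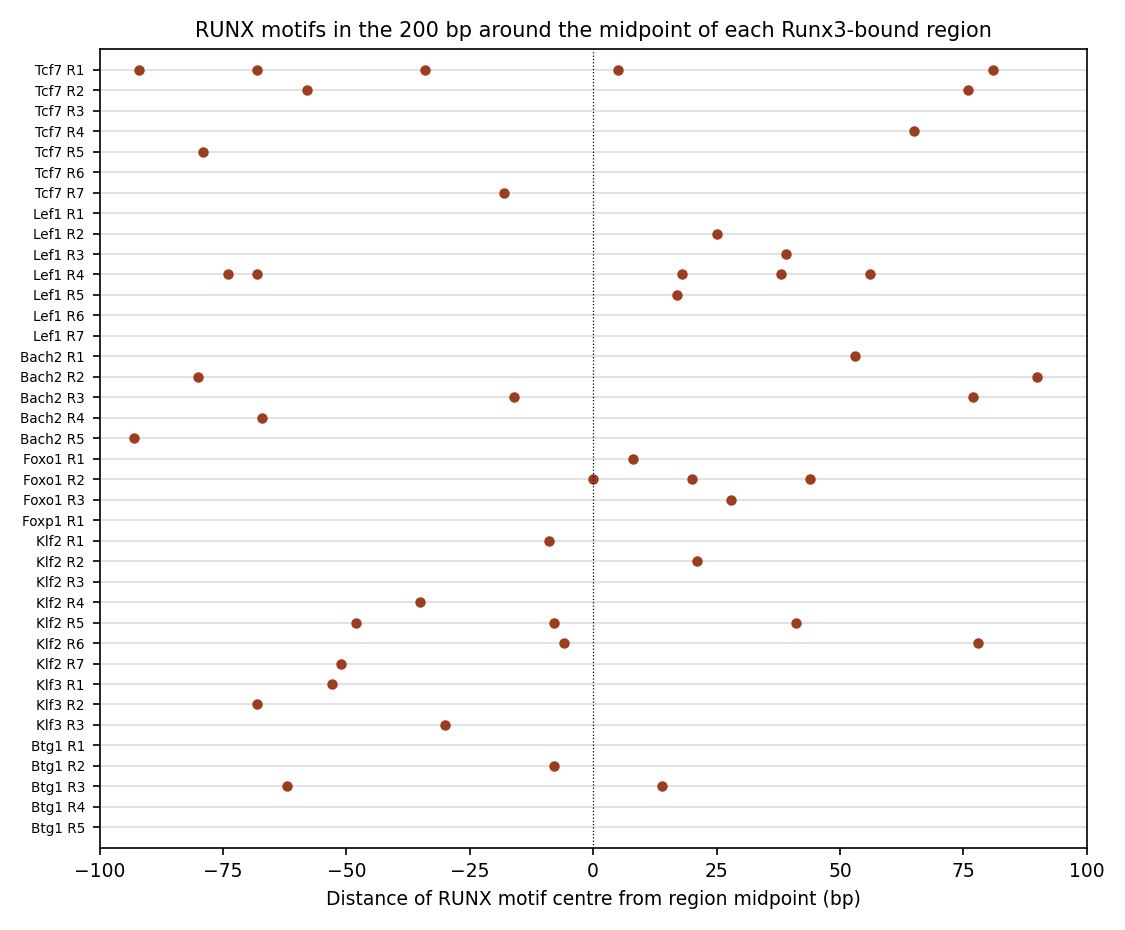
Positions of RUNX motifs in the 200 bp around the midpoint of each of the 38 Runx3-bound regions, with distance from the midpoint in bp on the horizontal axis and 1 row for each region, grouped by gene. The windows of Tcf7 R1 and Lef1 R4 hold 5 motifs each and 10 windows hold none.

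Motifs of the factors encoded by these genes were counted in the same windows, on both strands. The TCF/LEF motif (CTTTGAA or CTTTGAT) was found in 9 of 38 regions (23.7%, 13.0 to 39.2%), compared with 11.3% of all Runx3-bound regions and 10 of 76 windows 5 kb away (13.2%). They were 3 at Tcf7, 2 at Lef1, 2 at Bach2, 1 at Foxo1 and 1 at Klf2. In Tcf7 R1, printed above, it lies to the left of the midpoint. The forkhead motif TGTTTAC was found in 2 regions (Lef1 R3 and Bach2 R4), the BACH/AP-1 motif (TGACTCA or TGAGTCA) in 2 (Tcf7 R4 and Btg1 R1) and the KLF motif (GGGCGTGG or GGGTGTGG) in 1 (Btg1 R5). Over all Runx3-bound regions these were found in 3.63%, 4.56% and 4.52%. GGGTGTGG can share bases with a RUNX motif. The ETS motif (AGGAAA or AGGAAG, likewise CGGAAA or CGGAAG), of the family that often binds beside RUNX factors, was found in 19 of 38 (interval 34.8 to 65.2%), compared with 63.8% of all and 39.5% of the windows 5 kb away. A match is a run of letters and not a shown binding site.

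Genes related to the 9 were counted by the same rule, in lists that were likewise drawn up with earlier results known. Of 7 other genes of naive T cells, all 7 had Runx3-bound regions, with a median of 3, beside 30.8% and a median of 0 for all protein-coding genes. The chemokine receptor gene Ccr7 and the sphingosine phosphate receptor gene S1pr1, which guide naive cells into and out of lymph nodes, had 6 each, with H3K4me1 covers of 57.9% and 55.3%. The chromatin organizer gene Satb1 had 4, Bcl2 had 3, Il7r and Id3 had 2 each and Cdkn1b had 1. Among 6 other genes tied to quiescence, 4 had Runx3-bound regions (median 1.5), beside the same 30.8%: Runx1, the paralog of Runx3, had 7, Ets1 had 6, Slfn2 had 2 and Foxj1 had 1, and Tsc1 and Gfi1 had 0.

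Paralogs of the 9 genes were counted as well. Of 19 family relatives, 8 had Runx3-bound regions and the median was 0, which is also the median of all protein-coding genes, of which 30.8% had at least 1. Klf13 had 4 with an H3K4me1 cover of 49.4%, and Foxp3, Klf6 and Btg2 had 2 each. Tcf7l1, Foxo3, Foxo4, Foxp4, Klf4, Klf10 and Tob2 were among the 11 with 0. Tob2 and Tob1 thus both had 0, and Btg2 had 2 beside the 5 of Btg1. Of the 11 genes of the CCR4-NOT complex and its poly(A)-binding partner, which work with Tob1 and Btg1, 3 had Runx3-bound regions, beside the same 30.8% of all genes: Pabpc1 had 3, Cnot3 had 2 and Cnot2 had 1.

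**Figure D5:**
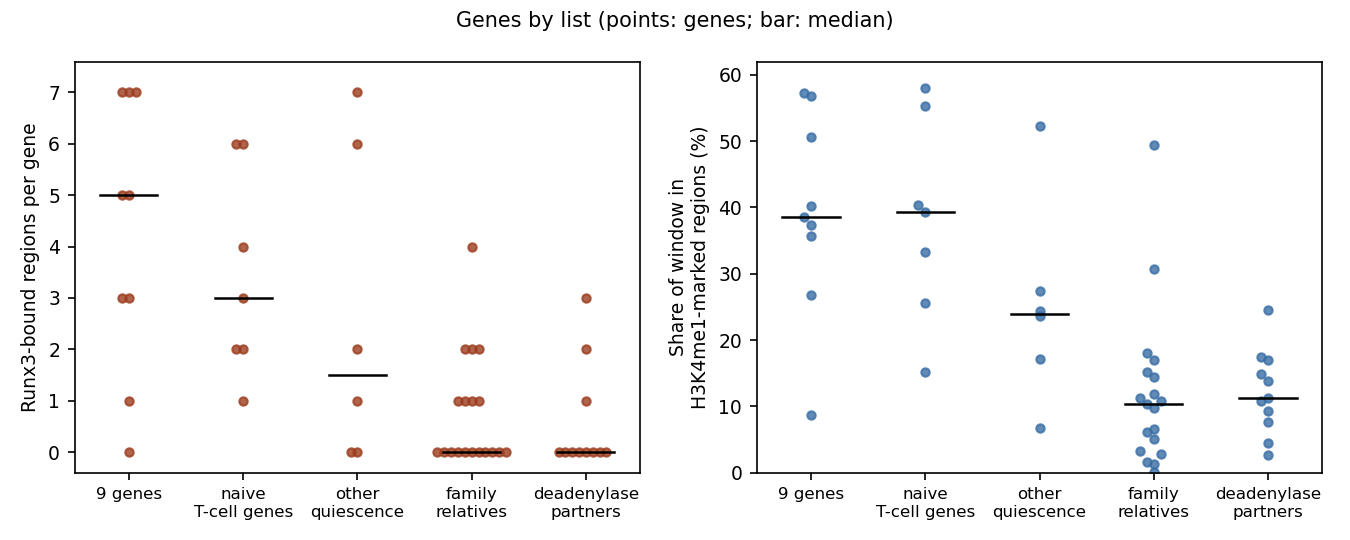
Runx3-bound regions in the gene body or within 50 kb (left, vertical axis) and percent of the same window covered by H3K4me1 (right, vertical axis) for each gene of the 5 lists, 1 point for each gene with a bar at the median. On the left the median is 5 for the 9 genes, 3 for naive T-cell genes, 1.5 for other quiescence genes and 0 for family relatives and for deadenylase partners.

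The plot of the 5 lists shows overlapping ranges: Runx1 with 7 reaches the value of Tcf7, Lef1 and Klf2, Ccr7, S1pr1 and Ets1 with 6 lie between these and Bach2 and Btg1 with 5, and Foxp1 and Tob1 lie at 1 and 0. These are counts in windows of unequal length. Per 100 kb, S1pr1 had 5.73, Ccr7 5.41, Ets1 2.71 and Runx1 2.16, beside 6.82 at Klf2, 5.35 at Tcf7 and 3.27 at Lef1.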

How the data were processed

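ChIP-seq was done on splenic CD8-TC, with reads of 40 to 42 bp per the labels. The authors aligned reads to mm9 with ELAND (CASAVA 1.6 and 1.7 in the submitters' processing notes), kept unique alignments, joined the repeats and called regions with MACS against joined NIS, scaling the larger set down. Reads of repeated sequence are thereby lost. The deposited lists hold start and end positions in base pairs and no other measured value. Starts were moved to count from 1. Genes were the 22350 protein-coding genes of GENCODE (NCBIM37). Overlap meant at least 1 bp, shares have Wilson intervals and medians order-statistic intervals. Sequences were read from NCBIM37. The counting steps were tested on simulated regions. Python 3.11.15, numpy 2.4.6, scipy 1.17.1 and matplotlib 3.10.9 were used. All 38 regions were described, and sequence was printed for 1 region per gene, that with the most RUNX motifs near the midpoint (in a tie, the nearest to the gene's start), unless the window touched an exon. The 9 genes and all lists were chosen with earlier results of these data known. One gene of the naive T-cell list and 1 cell marker gene are not reported here and were left out of the counts. The cell marker genes were picked after the lists had been seen. Older symbols were used for Cnot9 (Rqcd1) and Cnot11 (D1Bwg0212e). Alternatives were other assignment distances, overlaps, motif windows, a width minimum, merging within 1000 bp, and, added after the data were seen, all start sites of protein-coding transcripts, the genes with 5 or more regions at other distances, and comparison windows free of Runx3.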

Additional observations from a re-analysis of the deposited data

How the results depend on the processing

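Of 37 alternative values, 26 stayed within 1.5 times a reported count or within the 95% interval of a reported share or median, and 11 moved past these limits. The 38 Runx3-bound regions became 23 with a distance of 10 kb, 22 in gene bodies alone and 21 with only regions at or above the list's median width. The 5 genes with 5 or more became 2 within 10 kb and 2 in gene bodies, counts made after the data were seen. The 324 H3K4me1-marked regions became 195 in gene bodies, 186 within 50 kb of the TSS, 192 at or above the median width and 143 after merging, which took their median width from 1249.5 to 2133 bp. The motif share rose from 73.7% to 94.7% over whole regions, which are longer. With all start sites of protein-coding transcripts, an alternative chosen after the data were seen, 5 of 25 (20%) lay in H3K4me1 in place of 1 of 9 (11.1%). The interval of a share of 9 is wide, so that this was counted among the 26 although it is the larger by over 1.5 times. A list without heights allowed no stricter calling threshold, for which width stood in. Leaving out a replicate was not possible, since each list was called on joined repeats. No paired analysis was possible because the columns carry no replicate.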

Other observations

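Farther Runx3-bound regions for which one of the 9 genes was the nearest protein-coding gene were counted apart. There were 19 of them, 53.1 to 246 kb from the start, all 19 overlapping H3K4me1 and 16 with a RUNX motif near the midpoint, beside 78.8% and 65.9% of all Runx3-bound regions. Btg1 had 8 of these, from 81.0 to 246 kb, of which 3 lay 104.3, 106.2 and 108 kb downstream of the start. Lef1, which had no bound region in its flanks of 50 kb, had 5 between 53.1 and 178.1 kb, all upstream. Foxp1, with 1 bound region in its window, had 4 between 122.5 and 168.7 kb upstream of its 5′-most annotated start. Whether these 4 lie in a part of Foxp1 missing from the annotation was not tested. Klf3 had 2 at 128.4 and 151.9 kb upstream. Distance alone does not say which gene such a region acts on.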
